A study of Homo sapiens with 4 samples.

Results

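The 45 genes described here encode DNA repair and replication stress proteins, and they were taken by gene symbol from a list of their names. No measured value entered this rule, but the list was chosen with earlier results of these data known. All 45 were found among the 63677 genes counted in 4 RNA-seq libraries of HCT116, a human colorectal cancer line. In 2 libraries the cells had been transfected with the anti-GAA ASO, an antisense oligonucleotide of TTC repeats directed at RNAs that hold GAA repeats, and in the other 2 with a control ASO. The labels give 48 h of transfection in RPMI medium for all 4, and no library of untransfected cells was used here, so any effect of transfection that both ASOs share cannot be seen. Replicates 1 and 2 of each ASO carry the numbers 232 and 234, and the study's methods speak of duplicate experiments without saying whether these were separate cultures. The p-values therefore measure only the spread between these libraries, which may be technical. The genes were counted as 12 checkpoint, 15 homologous recombination, 9 Fanconi anemia, 4 mismatch repair and 5 end joining and break sensing genes. As each library is a bulk sample, fewer cells of a type and less RNA per cell cannot be told apart.

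Cells meet stalled replication forks and broken DNA with a relay of kinases. ATR and its partner ATRIP sense exposed DNA without a second strand, ATM senses breaks, and their targets CHEK1 and CHEK2 slow the cell cycle. Broken ends are rejoined directly by end joining, or trimmed and copied from the sister chromatid by homologous recombination. The Fanconi anemia proteins unhook crosslinks between the strands, and mismatch repair corrects errors left by the polymerase. HCT116 is known for a defect in mismatch repair.

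All 45 genes passed the filter on low counts, as did 15116 genes in all, so none was kept out for being low. Total counts per library ran from 10538284 to 17894953. The 8 markers of an epithelial colon line summed to 2723 and 3112 CPM (counts scaled to a common library size, with TMM factors) in the anti-GAA libraries and to 2849 and 3130 CPM in the controls, so these sums overlapped. Gene by gene, 6 of the 8 had a log2 fold change below 0 and lay without overlap below the controls (75.0%, where 16.9% of all tested genes did), and their median was −0.26. KRT18, the one with an unadjusted p under 0.05 (0.0434 in edgeR), had 224 and 308 CPM against 389 and 388 CPM. The part of this shift in the values of the repair genes, whose median is given further on, was not tested. Among 9 markers of other cell types, CD3E, PECAM1 and COL1A2 had 0 counts, PTPRC, CD68, ALB and PDGFRB stayed under 1 CPM, and COL1A1 reached 10.1 to 14.6 CPM. NCAM1 differed between the replicate numbers, with 0.606 and 0.783 CPM in the libraries of replicate 1 and 9.55 and 8.14 CPM in those of replicate 2.

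The target of the ASO was looked for first, in the longest transcript of each gene in GENCODE 44 on GRCh38. A perfect run of GAA in any frame, of at least 9 nt, was present in 15 of the 45 genes (33.3%) and in 20.1% of the 14751 tested genes with a transcript sequence. At 12 nt or more, 1 of the 45 genes and 2.54% of all genes held a run. This gene was WRN, with 16 nt in coding exon 12 of 35. The next longest run was 11 nt, in BLM, and RAD50 held 3 runs of 9 nt. These runs are shown because both genes are described further on, with the run in capitals and 4 nt of flank on each side, on the RNA strand and written as DNA.
BLM, coding exon 4 of 22, chr15:90751798-90751808, + strand: cgaaAAGAAGAAGAAtttg
RAD50, coding exon 14 of 25, chr5:132603433-132603441, + strand: gcctGAAGAAGAAagtg
RAD50, coding exon 20 of 25, chr5:132616069-132616077, + strand: agttGAAGAAGAAagaa
RAD50, coding exon 21 of 25, chr5:132618149-132618157, + strand: ttatGAAGAAGAAatta

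With mismatches allowed, the best window of 21 nt against a full GAA repeat matched at 16 or more positions in 17 of the 45 genes (37.8%), against 17.4% of all genes. Both shares stand beside a difference in length and base composition, since the longest transcripts of the 45 genes had a median of 5687 nt and 42.2% GC, against 3407 nt and 48.0% for all genes. The windows of the 5 genes with an unadjusted p under 0.05 in the comparison of the ASOs, other than WRN, and of XRCC6 follow with the matching bases in capitals. XRCC6 is shown because only WRN matched at more positions among the 45 genes, with 19 of 21.
XRCC6, 18 of 21, coding, chr22:41622041-41622061, + strand: GAtGAAGAAGcAGAgGAAGAA
BRIP1, 17 of 21, in a transcript without an annotated reading frame, chr17:61683662-61683682, - strand: GAAacAGAAGcAGAAGAtGAA
RAD50, 16 of 21, coding, chr5:132616054-132616074, + strand: GAActAaAAGAAGttGAAGAA
ATR, 15 of 21, coding, chr3:142553948-142553968, - strand: GAAGAtGAAacAGAtGtAaAA
MSH3, 15 of 21, not wholly in a coding exon, chr5:80876636-80876656, + strand: aAAaAAGAAaAAagAaAAGAA
A match of letters does not show that the ASO bound there.

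In the comparison of the anti-GAA with the control ASO, 30 of the 45 mRNAs lay below 0 on the log2 scale of fold change (66.7%, where 48.4% of the tested genes did). Their median log2 fold change was −0.18, against 0.013 for all tested genes, and the range ran from −1.40 (MSH3) to 0.54 (SLX4). In edgeR without the replicate number as a block, 0 of the 45 and 0 of all 15116 genes (0.0%) reached an adjusted p under 0.05, and the smallest adjusted p of the 45 was 0.686, for RAD50. At an unadjusted p under 0.05, 5 of the 45 were lower (RAD50, WRN, MSH3, ATR and BRIP1), where 3.46% of all genes were lower, and 0 were higher, where 1.02% of all genes were higher. DESeq2 without the block also called 0 of the 45 at an adjusted p under 0.05. At an unadjusted p under 0.05 it had 4 lower (RAD50, WRN, MSH3 and ATR), beside 1.25% of the 28017 genes it tested. That total includes genes which the filter on low counts removes. Among the 15116 genes that passed the filter, 310 were lower at that p in DESeq2. Without those 5 genes, a subset chosen after the values had been seen, the median of the other 40 was −0.16, with 25 below 0.

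Both libraries with the anti-GAA ASO lay below both control libraries for 15 of the 45 genes (33.3%), as they did for 16.9% of all genes. These were ATR, ATRIP, TP53BP1, RAD50, WRN, MRE11, BLM, BRCA1, BRIP1, FANCI, FANCM, MSH3, EXO1, LIG4 and PRKDC. Both lay above for 5 genes (11.1%, against 15.5% of all genes), namely MDC1, RAD17, FANCA, SLX4 and PARP1. For the other 25 genes the libraries of the 2 ASOs overlapped.

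Libraries that share a number were then compared as pairs, with pair 1 for number 232 and pair 2 for number 234. The median difference in log2 CPM over the 45 genes was −0.24 in pair 1 and −0.19 in pair 2, against −0.0041 and 0.020 over all tested genes. The difference was below 0 in both pairs for 25 of the 45 (55.6%, against 30.0% of all genes) and above 0 in both for 7 (15.6%, against 31.8%). In a fit that took this number as a block, 2 of the 45 were lower at an adjusted p under 0.05 in edgeR, RAD50 and WRN, beside 1.37% of all genes, and 0 higher, beside 0.337% of all genes. The labels do not state what the shared number stands for, and the block leaves 1 residual degree of freedom for each gene.

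**Figure D1:**
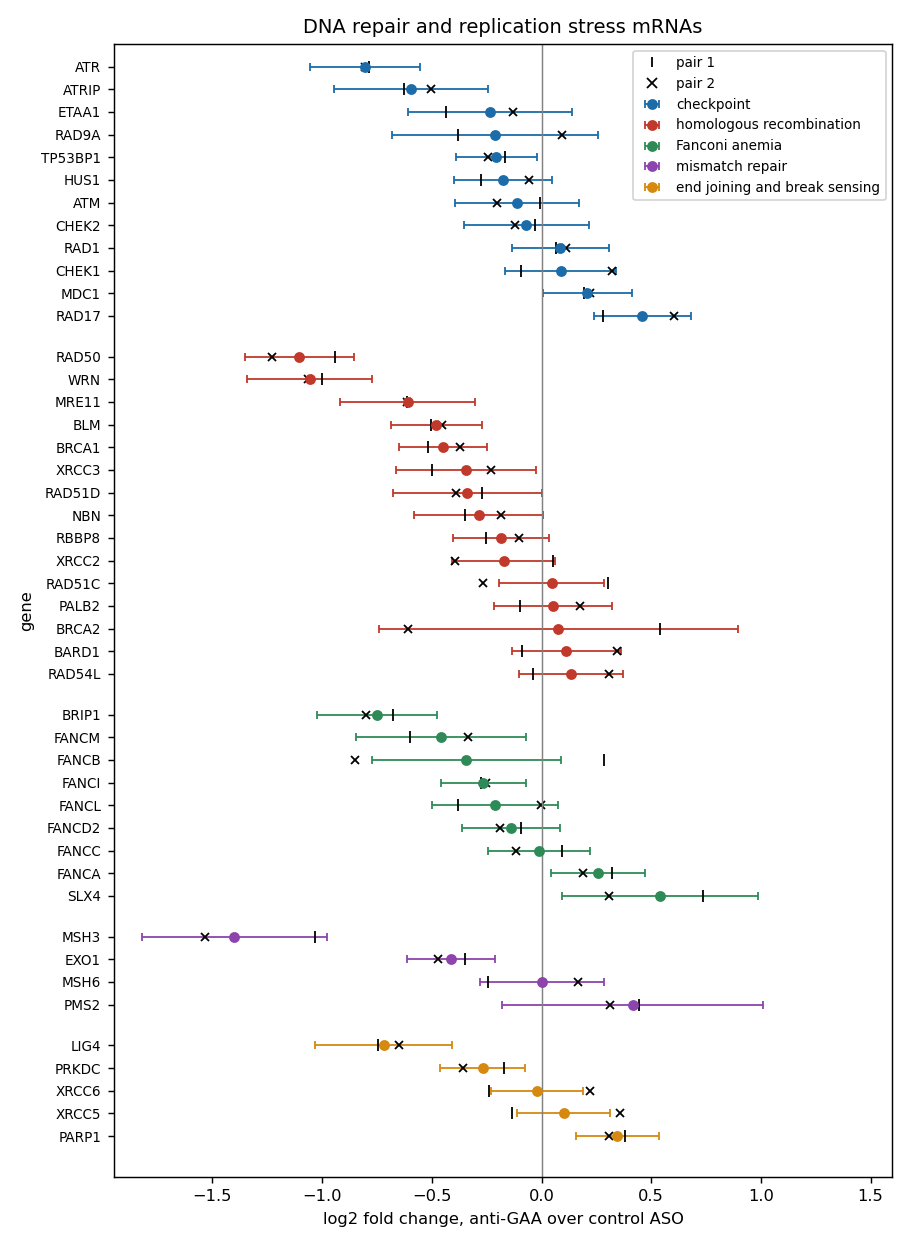
Log2 fold change of each of the 45 genes (anti-GAA over control ASO, from edgeR without the block), by functional group. Points with bars show the fold change and its standard error, and the black marks the difference in log2 CPM in pair 1 and pair 2. RAD50, WRN and MSH3 lie below −1, and 30 of the 45 points lie below 0.

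The checkpoint genes had a median log2 fold change of −0.14, with 8 of 12 below 0. ATR, the kinase that answers stalled forks, had the lowest log2 fold change of the 12. The anti-GAA libraries held 7.48 and 7.70 CPM of it, and the control libraries 12.98 and 13.56 CPM. The 2 conditions did not overlap, and replicates of each condition lay close together. This gave a log2 fold change of −0.81 (SE, standard error, 0.25, unadjusted p = 0.0156, adjusted p = 0.987 from edgeR), or 1.75-fold lower, and the adjusted p with the block was 0.0594.

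ATM, the kinase that answers breaks, had 7.27 and 7.87 CPM with the anti-GAA ASO against 7.30 and 9.08 CPM in the controls. Its log2 fold change of −0.11 (SE 0.28) was smaller than its error. CHEK1, which ATR phosphorylates, had 66.9 and 59.4 CPM against 71.3 and 47.5 CPM, and a log2 fold change of 0.087 (SE 0.25). CHEK2, which ATM phosphorylates, had 49.5 and 32.9 CPM against 50.5 and 35.7 CPM, and a log2 fold change of −0.069 (SE 0.28). In both, replicates of 1 condition differed by more than the 2 conditions did. The sign for ATM, CHEK1 and CHEK2 changed when a library was left out, that for CHEK1 also with scaling to total counts, and that for ATM also with offsets for length and GC content.

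ATRIP, which carries ATR to the DNA, had 4.65 and 3.54 CPM with the anti-GAA ASO against 7.24 and 5.07 CPM in the controls. On the log2 scale the change was −0.60 (SE 0.35, unadjusted p = 0.134 in edgeR). The gene overlaps TREX1 on the same strand, which held 775 counts against 306 for ATRIP, so reads of the overlap may have been split or dropped. ETAA1, a second activator of ATR, had a log2 fold change of −0.24 (SE 0.37).

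The ring-shaped clamp RAD9A-RAD1-HUS1, which marks damaged DNA for ATR, had log2 fold changes of −0.21, 0.085 and −0.18, each within its error (0.47, 0.22 and 0.22). RAD17, which loads this clamp, had the highest value of the group. It had 29.3 and 37.9 CPM with the anti-GAA ASO against 24.1 and 24.9 CPM, and a log2 fold change of 0.46 (SE 0.22, unadjusted p = 0.0777 in edgeR). RAD17 overlaps AK6 on the opposite strand, which held 8486 counts against 1755 for RAD17, and whether reads were counted by strand is not given in the sources used here. The mediators that gather on chromatin around breaks differed in sign, with −0.21 (SE 0.19) for TP53BP1 and 0.21 (SE 0.20) for MDC1.

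The homologous recombination genes had the lowest median of the 5 groups, −0.29, with 10 of 15 below 0. The 4 genes that trim broken ends were all below 0, with a median of −0.45. Among them RAD50, the arm of the complex that tethers DNA ends, had 12.3 and 13.7 CPM with the anti-GAA ASO against 23.8 and 32.1 CPM in the controls. The conditions did not overlap, and replicate 2 was the higher library in both. Its log2 fold change was −1.10 (SE 0.25, unadjusted p = 0.00306, adjusted p = 0.686 from edgeR), or 2.15-fold lower. With the block its adjusted p was 0.00833, and RAD50 was also called by DESeq2 with the block (adjusted p = 0.0243) and by edgeR without a filter (adjusted p = 0.0385).

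MRE11, the nuclease of the same complex, had 11.2 and 16.6 CPM with the anti-GAA ASO against 17.2 and 25.5 CPM in the controls. Both pairs gave −0.61 on the log2 scale, while replicates of 1 condition differed by nearly as much as the ASOs. This gave a log2 fold change of −0.61 (SE 0.31, unadjusted p = 0.0878 in edgeR), and its adjusted p with the block was also 0.0878. NBN, the third subunit, had 19.3 and 14.3 CPM against 24.6 and 16.2 CPM, with overlapping conditions and a log2 fold change of −0.29 (SE 0.29). RBBP8, which starts end trimming together with this complex, had −0.18 (SE 0.22). MRE11, NBN and RBBP8 passed an adjusted p of 0.05 in none of the fits run.

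WRN, a helicase of the RecQ family, had 4.75 and 4.38 CPM with the anti-GAA ASO against 9.65 and 9.32 CPM in the controls. Replicates of each condition differed far less than the conditions did. On the log2 scale the change was −1.06 (SE 0.28, unadjusted p = 0.00778, adjusted p = 0.922 from edgeR), or 2.08-fold lower, and the adjusted p with the block was 0.0322. WRN lost this call in DESeq2 with the block and in edgeR with the block and offsets for length and GC content. BLM, the other RecQ helicase of the group, had 20.3 and 22.7 CPM against 28.9 and 31.1 CPM and a log2 fold change of −0.48 (SE 0.21, unadjusted p = 0.0553 in edgeR). RAD54L, a motor protein that helps strand exchange, had 15.6 and 16.8 CPM against 15.98 and 13.50 CPM, the highest log2 fold change of the group at 0.13 (SE 0.24).

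**Figure D2:**
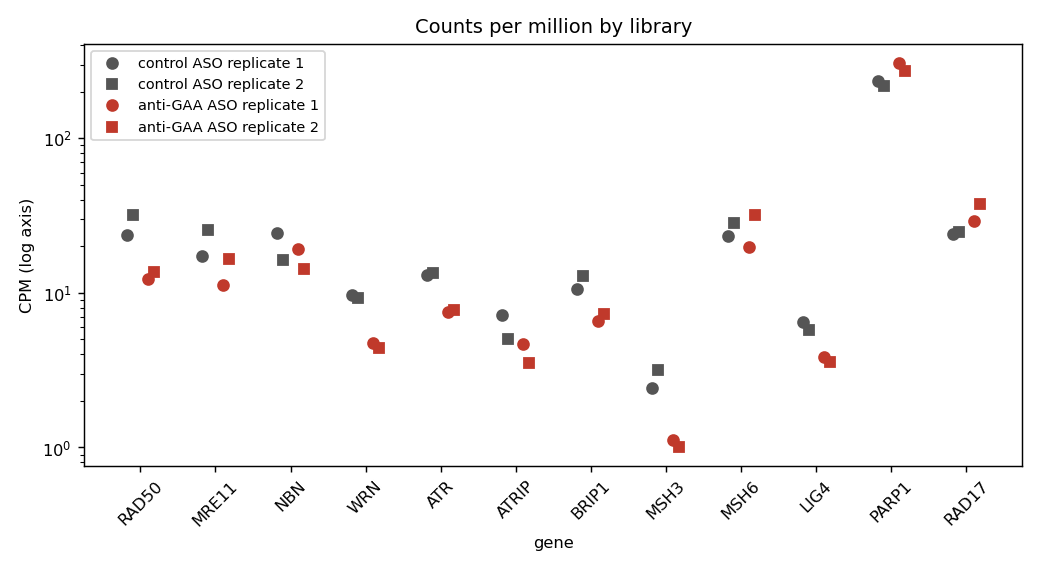
CPM of 12 of the genes in each of the 4 libraries, on a log axis. Grey marks are control ASO libraries and red marks anti-GAA ASO libraries, with circles for replicate 1 and squares for replicate 2. The red marks lie below both grey marks for RAD50, MRE11, WRN, ATR, ATRIP, BRIP1, MSH3 and LIG4, overlap with them for NBN and MSH6, and lie above both for PARP1 and RAD17.

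Of the BRCA proteins and their partners, which act in strand exchange, BRCA1 had 26.3 and 26.1 CPM with the anti-GAA ASO against 37.7 and 33.8 CPM in the controls. Its log2 fold change was −0.45 (SE 0.20, unadjusted p = 0.0608 in edgeR). Its partner BARD1 had 0.11 (SE 0.25), and PALB2, which links BRCA1 to BRCA2, had 0.051 (SE 0.27). BRCA2 was measured with 31 counts over the 4 libraries. Its log2 fold change of 0.076 had a standard error of 0.82, so a change of either sign smaller than this error could have been missed. Other genes of the recombination step had log2 fold changes of −0.34 (XRCC3), −0.34 (RAD51D), −0.17 (XRCC2) and 0.046 (RAD51C). RAD51C, at 46.4 CPM per kb of transcript the most abundant gene of the group in the control libraries, had 211 and 140 CPM with the anti-GAA ASO against 171 and 169 CPM, and its pairs differed in sign.

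The Fanconi anemia genes had a median log2 fold change of −0.21, with 7 of 9 below 0. BRIP1, a helicase that binds BRCA1, had 6.57 and 7.36 CPM with the anti-GAA ASO against 10.6 and 12.9 CPM in the controls. The conditions did not overlap, and the log2 fold change was −0.75 (SE 0.27, unadjusted p = 0.0297, adjusted p = 0.997 from edgeR), or 1.68-fold lower. With the block the adjusted p was 0.0862. SLX4, a scaffold for nucleases, lay at the other end of the group with 1.72 and 1.86 CPM against 0.978 and 1.47 CPM, a log2 fold change of 0.54 (SE 0.45) from 90 counts in all.

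FANCI, which with FANCD2 forms the clamp that closes on crosslinked DNA, was the most abundant Fanconi anemia gene per length, at 15.7 CPM per kb in the control libraries. It had 69.2 and 76.9 CPM with the anti-GAA ASO against 83.9 and 91.8 CPM, and a log2 fold change of −0.27 (SE 0.19). FANCD2 had −0.14 (SE 0.22). In the core complex, which attaches ubiquitin to this clamp, FANCM had −0.46, FANCB −0.34, FANCL −0.21, FANCC −0.012 and FANCA 0.26, with errors of 0.21 to 0.43. The pairs of FANCB went in opposite directions, with 0.28 in pair 1 and −0.85 in pair 2.

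Mismatch repair held the lowest of the 45 values. MSH3, which recognises small loops in newly copied DNA, had 1.11 and 1.01 CPM with the anti-GAA ASO against 2.41 and 3.18 CPM in the controls, from 120 counts in all 4 libraries. This gave a log2 fold change of −1.40 (SE 0.42, unadjusted p = 0.0131, adjusted p = 0.959 from edgeR), or 2.64-fold lower, and its adjusted p with the block was 0.0773. MSH6, which takes the place of MSH3 in the complex that recognises base mismatches, had 19.7 and 31.9 CPM against 23.4 and 28.4 CPM, and a log2 fold change of 0.0020 (SE 0.28). The difference between MSH3 and MSH6 was itself not tested.

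EXO1, the exonuclease that removes the faulty strand, had 39.3 and 41.1 CPM with the anti-GAA ASO against 50.02 and 57.14 CPM in the controls, and a log2 fold change of −0.41 (SE 0.20, unadjusted p = 0.0799 in edgeR). At 15.5 CPM per kb in the control libraries it was the most abundant mismatch repair gene of the 4. PMS2, which nicks that strand, had 1.11 and 0.618 CPM against 0.783 and 0.472 CPM, from 42 counts. Its log2 fold change of 0.42 had a standard error of 0.60, and its pseudogene PMS2CL held 173 counts, so reads of PMS2 cannot be told apart with certainty from those of its copies.

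The 5 end joining and break sensing genes had a median log2 fold change of −0.021. LIG4, the ligase of end joining, had 3.84 and 3.60 CPM with the anti-GAA ASO against 6.52 and 5.72 CPM in the controls. On the log2 scale the change was −0.72 (SE 0.31, unadjusted p = 0.0553 in edgeR), or 1.65-fold lower. PRKDC, the catalytic kinase of DNA-PK, had 81.7 and 83.6 CPM against 92.0 and 107 CPM, and a log2 fold change of −0.27 (SE 0.19). XRCC6 and XRCC5, which form the Ku ring that grips DNA ends, had −0.021 and 0.10 (SE 0.21 each). XRCC6 had 579 and 612 CPM with the anti-GAA ASO against 685 and 524 CPM in the controls, so that the controls lay on either side. PARP1, a break sensor that builds poly(ADP-ribose) chains, had 307 and 271 CPM against 236 and 219 CPM, and a log2 fold change of 0.35 (SE 0.19, unadjusted p = 0.113 in edgeR).

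**Figure D3:**
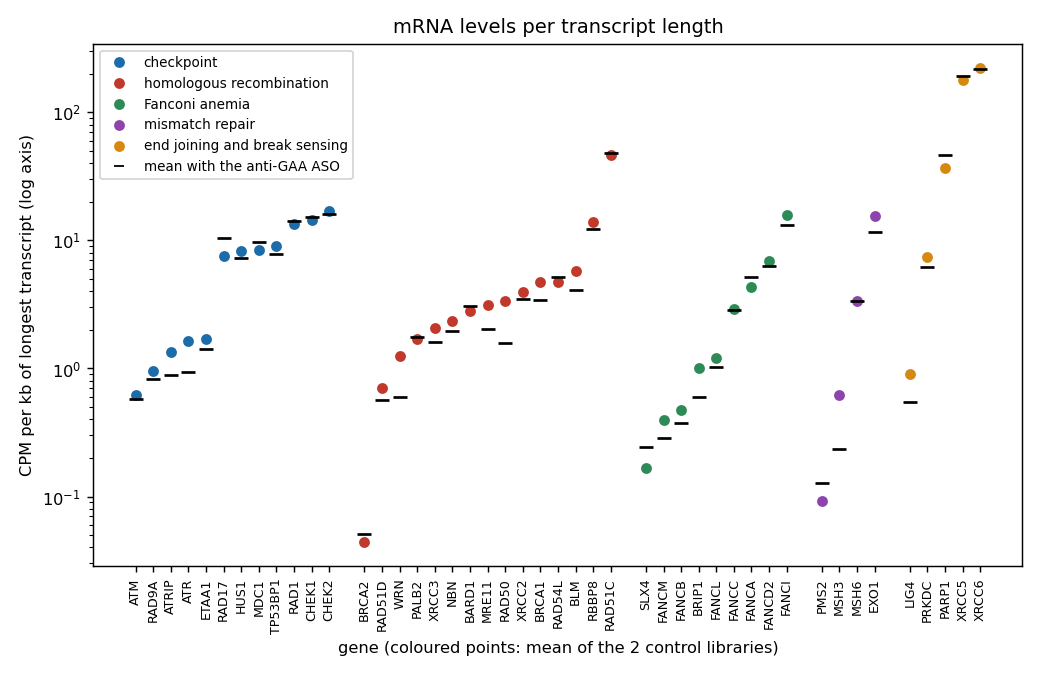
Mean level of each gene per kb of its longest transcript (CPM per kb, log axis), with coloured points for the 2 control ASO libraries and black bars for the 2 anti-GAA ASO libraries. XRCC6 and XRCC5 lie highest, at 223 and 180 CPM per kb with the control ASO, and BRCA2 lowest, at 0.0441.

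Levels per length in the control libraries covered a wide range, from 0.0441 CPM per kb for BRCA2 and 0.0922 for PMS2 to 180 for XRCC5 and 223 for XRCC6. Among the kinases, ATM and ATR had 0.624 and 1.63 CPM per kb, below CHEK1 at 14.4 and CHEK2 at 16.8. The 5 genes with an unadjusted p under 0.05 had between 0.624 (MSH3) and 3.38 CPM per kb (RAD50). Summed over the 45 genes, the libraries held 2739 and 2709 CPM with the anti-GAA ASO against 2920 and 2538 CPM in the controls, so the sums of the conditions overlapped.

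The change was next set against transcript length. Over the 45 genes, Pearson's r between the log2 fold change and the length of the longest transcript was −0.20 and Spearman's rho −0.25. Over the 14751 tested genes with a transcript they were −0.078 and −0.13. These correlations are across genes, which share the 4 libraries and are not independent replicates, and they are given as a description. The slope differed between the pairs, with a rho of −0.12 in pair 1 and −0.37 in pair 2. A relation of similar size separated the 2 control libraries. Their difference, replicate 2 minus replicate 1, had a rho of 0.26 with length over the 45 genes and 0.11 over all genes. Between the 2 anti-GAA libraries the relation was smaller, with a rho of 0.093 over the 45 genes and 0.057 over all genes. The sign of each such rho depends on which replicate is subtracted, so only its size can be compared. After offsets that take out each library's trends on length and GC content, the rho over the 45 genes was −0.11, and with the median transcript length of each gene in place of the longest it was −0.18. Without replicate 2 of the control ASO it was −0.088.

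By length class, the 11 genes under 4 kb had a median log2 fold change of −0.069, against 0.045 for all genes of that class. The 12 genes of 4 to 6 kb had −0.16 against −0.0048, the 12 of 6 to 8 kb −0.17 against −0.038, and the 10 of 8 kb or more −0.28 against −0.087. The median of the repair genes was thus below that of all genes in each of the 4 classes, a difference that was not tested. Within the longest class 9 of 10 genes were below 0, from −1.10 for RAD50 with 8272 nt to −0.11 for ATM with 13130 nt, and BRCA2 was the exception at 0.076. These lengths are of the longest annotated transcript of any type. For ATM, BRIP1, NBN and FANCL, all in this class, that transcript has no annotated reading frame and may not be the main one in these cells. PRKDC, with 13459 nt the longest transcript of all 45, had −0.27, and MSH3, the gene with the lowest value, had only 4486 nt.

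The runs of GAA shown above were also compared with the change. All tested genes had a median log2 fold change of 0.030 with a run under 9 nt, −0.037 with 9 to 11 nt and −0.16 with 12 nt or more. The 30 repair genes with a run under 9 nt had −0.17, the 14 with 9 to 11 nt had −0.22, and WRN, alone in the top class, had −1.06. The difference between the repair genes with and without a run of at least 9 nt was −0.061, and −0.037 and −0.089 in pairs 1 and 2. It turned to 0.026 without replicate 2 of the control ASO and to 0.0085 with offsets for length and GC content. RAD50, with its 3 runs, and BLM were lower with the anti-GAA ASO in both pairs. However, MSH3, ATR and BRIP1 were among the 30 genes with no run of 9 nt in the longest transcript. SLX4, PARP1, PMS2, BRCA2 and MSH6, which had one, lay above 0, MSH6 at only 0.0020. Below 0 were 20 of the 30 repair genes with a run under 9 nt, 9 of the 14 with 9 to 11 nt, and WRN. Over the whole gene body, MSH3 held a run of 12 nt, while ATR and BRIP1 held none of that length. All tested genes with such a run in the gene body had a median log2 fold change of −0.14, against 0.031 without. The 11 repair genes with one had −0.11, against −0.20 for the other 34. XRCC6, whose window printed above matches at 18 of 21 positions, had a log2 fold change of −0.021. Whether binding of the ASO to these sequences plays a part in any of these changes was not tested.

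A wider list of 103 other DNA repair and replication stress genes was counted in the same fit. Of the 102 that were tested, 61 were below 0 (59.8%), with a median log2 fold change of −0.089 and 0 past an adjusted p of 0.05 in edgeR without the block. Both libraries with the anti-GAA ASO lay below both controls for 29 of these genes (28.4%, beside 16.9% of all genes) and above for 10 (9.80%, beside 15.5%). Their summed level was 4288 and 4028 CPM with the anti-GAA ASO against 4323 and 3897 CPM in the controls. Genes that E2F switches on in S phase, which share the cell cycle timing of many repair genes, had values of the opposite sign, with 17 of 20 above 0 and a median log2 fold change of 0.13. This median was 0.052 in pair 1 and 0.22 in pair 2, 0.074 without replicate 2 of the control ASO and 0.040 with scaling to total counts. These genes summed to 4961 and 4834 CPM in the anti-GAA libraries and to 4693 and 4151 CPM in the controls. In edgeR, 0 of them passed an adjusted p of 0.05 with or without the block, or an unadjusted p of 0.05 without it. The part of cell cycle stage in the values of the 45 genes was not tested.

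**Figure D4:**
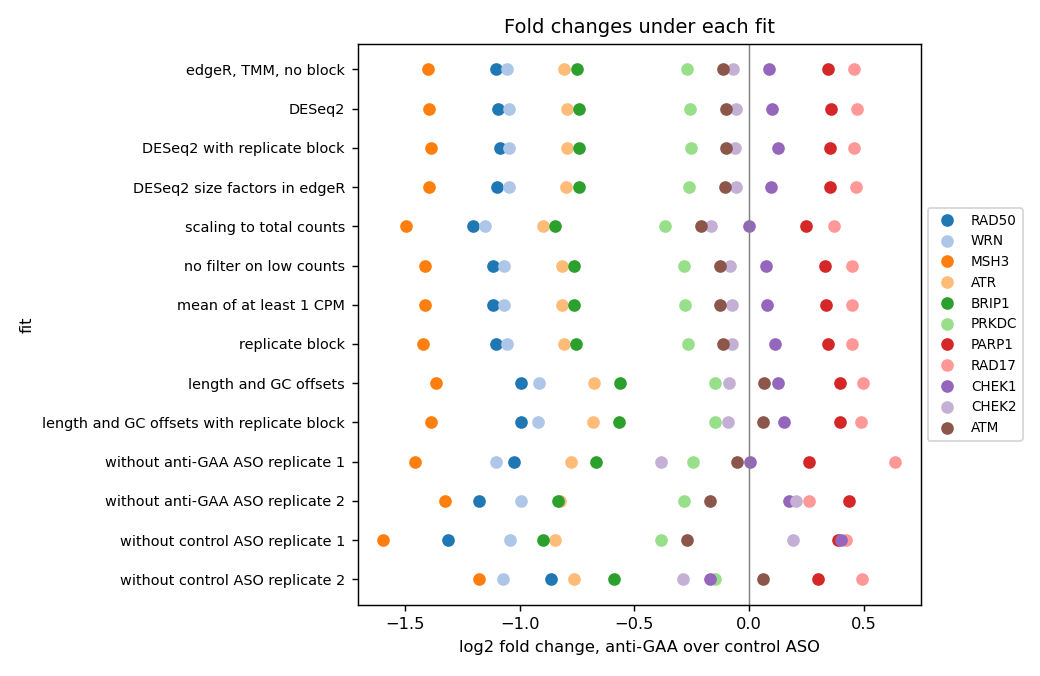
Log2 fold changes of 11 of the genes (colours) under each fit (rows), with a grey line at 0. RAD50, WRN, MSH3, ATR and BRIP1 lie below 0 in all 14 rows and PARP1 and RAD17 above 0, while CHEK1, CHEK2 and ATM cross 0 between rows.

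Across the fits the 5 lowest genes kept their direction. The log2 fold change of RAD50 lay between −1.31 and −0.86 and that of WRN between −1.15 and −0.92 in the 13 alternatives to edgeR without the block. MSH3 lay between −1.60 and −1.18, ATR between −0.90 and −0.68 and BRIP1 between −0.90 and −0.56. PARP1 lay between 0.25 and 0.44 and RAD17 between 0.26 and 0.64. With each library left out in turn, the number of the 45 genes lower at an unadjusted p under 0.05 ran from 2, without replicate 2 of the control ASO (where 1.86% of all genes were), to 6, without replicate 1 of the control ASO (3.86%). It was 3 without replicate 1 (3.33%) or replicate 2 (3.92%) of the anti-GAA ASO. The median of the 45 genes stayed below 0 throughout. It was −0.044 without replicate 1 of the control ASO, where that of all tested genes was 0.0042. Without replicate 2 of the anti-GAA ASO it was −0.093, against −0.027 for all genes. With the offsets for length and GC content it was −0.098, against 0.057 for all genes.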

How the data were processed

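Per the labels and the study's methods, trimming was done with Trimmomatic 0.38 and mapping to hg19 with STAR 2.6.1. After reads on GL contigs had been set aside, featureCounts 1.6.3 gave counts for annotated Ensembl genes. The deposited counts are whole numbers, not normalized, and 0 columns of values per sample were left unused. Which Ensembl release and strand setting were used, and how reads that match several genes were handled, is not given in the sources used here. The library kit is named as stranded mRNA in the study's methods but as total RNA in the labels, and these 2 sources also differ on the transfection time.

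The counts of all genes were tested with edgeR 4.0.16 (quasi-likelihood test, filterByExpr, TMM, the ASO as the only term, R 4.3.3), two-sided, with Benjamini-Hochberg adjustment over 15116 genes. CPM used the TMM library sizes, and pair differences were taken on log2 CPM with a prior count of 2. The script was checked on simulated counts. Standard errors come from the fit. Positions, transcripts and symbols came from GENCODE 44 on GRCh38, joined by Ensembl identifier (52181 genes matched), with no position carried over from hg19. The 45 genes, their groups and the other lists were chosen with earlier results of these data known. Genes given with the value of every library were the kinases, those past a threshold with or without the block, the lowest and highest of each group, those with a GAA run of 12 nt or more, and the most abundant per kb of each group. ATRIP, MRE11, NBN, BLM, BRCA1 and MSH6 were added after their values had been seen, as were the windows of 21 nt, runs over the gene body and the median without 5 genes. Alternatives were DESeq2 1.42.0, the replicate block, other scalings and filters, each library left out in turn, and offsets for length and GC content (mgcv 1.9.3). No set test was run. Some items of these data are not reported here.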

Additional observations from a re-analysis of the deposited data

How the results depend on the processing

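With 2 libraries an ASO, 0 genes were called in either direction by edgeR with no block with the filter on low counts. Leaving out 1 library, where the lone library is assumed to vary like the others, gave 0 to 16 genes lower and 0 to 3 higher over all genes, 0 of the 45 called, and 2 to 6 lower at an unadjusted p under 0.05. The median of the 45 then ran from −0.26 to −0.044 and the share below 0 from 57.8% to 71.1%. Over all genes that median ran from −0.027 to 0.026 and that share from 47.3% to 52.4%. For the 45 the rho with length ran from −0.30 to −0.088 and the difference by GAA run from −0.21 to 0.026. The median of the wider list ran from −0.14 to −0.0076. The cause of these shifts was not tested.

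The replicate numbers were checked as pairs. Same-numbered libraries deviated together from their condition means (r = 0.564 across genes). The first principal component held 52.7% of the variance, and whether it separated the numbers or the ASOs was not examined. The labels do not say what the number marks, and 2 pairs are too few to settle it. With the block, edgeR called 207 genes lower and 51 higher, 2 of the 45 lower (at an unadjusted p under 0.05, 11 lower, beside 9.7% of all genes, and 2 higher, PARP1 and RAD17, beside 6.86%), and 2 of the wider list lower and 1 higher, with a median of −0.071 for that list and −0.11 for the GAA split. DESeq2 with the block called 40 lower and 13 higher, with 1 of the 45 lower (RAD50) and 1 of the wider list higher. At an unadjusted p under 0.05 it had 1 of the 45 higher (PARP1), beside 1.49% of the 28017 genes it tested. That total includes genes which the filter on low counts removes. In this fit the median of the wider list was −0.061 and the GAA split −0.11. The block changed no other call.

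DESeq2 without the block called 3 genes lower. No filter gave 111 lower and 5 higher, with 1 of the 45 lower (RAD50). At a mean of at least 1 CPM, 72.1% of the 43 genes left were below 0 (48.8% of all genes), and the GAA split was −0.11. Scaling to total counts, which moved the median of all genes to −0.081, gave 9 of the 45 lower at an unadjusted p under 0.05 (4.58% of all genes). The median of the 45 was then −0.28, with 80.0% below 0 (61.0% of all genes), and that of the wider list −0.18. An unadjusted p in place of the adjusted one gave 5 lower. With offsets for length and GC content, the median was −0.098 (0.057 over all genes), and 60.0% were below 0 (42.6% of all genes). The GAA split was then 0.0085 and the wider list −0.035. With the offsets and the block, 185 genes were lower and 89 higher, and 1 of the 45 was called lower (RAD50). An unadjusted p under 0.05 was reached by 10 lower (7.93% of all genes) and 4 higher (FANCA, MDC1, PARP1 and RAD17, with 9.99% of all genes). The median was −0.11 (0.058 over all genes), 60.0% were below 0 (42.7% of all genes) and the GAA split was 0.0014. The wider list had 2 lower, 1 higher and a median of −0.027. Chosen after seeing the data, the split by the best window of at least 16 of 21 nt gave 0.0099, and that by a run of at least 12 nt in the gene body 0.083.

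Small log2 fold changes turned sign. XRCC6 was 0.0029 in DESeq2 with the block, and −0.19 to 0.18 with a library left out (0.025 without anti-GAA replicate 1). CHEK1 was −0.00069 with scaling to total counts, and −0.17 to 0.40 with a library left out. RAD51C was −0.056 with scaling to total counts, and −0.27 to 0.31 with a library left out. ATM was 0.065 with the offsets and 0.061 with offsets and block, and −0.27 to 0.062 with a library left out. CHEK2 ran from −0.38 to 0.20 (0.19 without control replicate 1) and PMS2 from −0.0057 to 0.83 with a library left out.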

Other observations

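Among the wider list of repair genes, some passed the test only in the fits with the block, and the examples given here were chosen after their values had been seen. DDB2, which recognises ultraviolet damage and is a known target of p53, had 31.6 and 38.7 CPM with the anti-GAA ASO against 53.0 and 70.1 CPM in the controls. With no block edgeR gave a log2 fold change of −0.81 (SE, standard error, 0.24, adjusted p = 0.950), and the adjusted p was 0.0134 with the replicate number as a block. H2AX, the histone that is phosphorylated around breaks, had 151 and 70.5 CPM with the anti-GAA ASO against 96.1 and 32.2 CPM in the controls. Replicate 1 held more than replicate 2 in both conditions, the conditions overlapped, and edgeR gave a log2 fold change of 0.78 (SE 0.54, adjusted p = 0.997) with no block, against 0.88 (SE 0.15, adjusted p = 0.00993) in the blocked fit.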
